A study of Gallus gallus with 6 samples.

Results

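The genes described here were those that had a lower mRNA level in chicken neural tube cells expressing MEK1ca than in control cells and whose level was still low when HOXB8 was expressed together with MEK1ca. They were chosen by their CPM (the reads of a gene scaled to the total of its library). The rule asked for a mean of at least 5 CPM in pCIG, for a ratio to pCIG of at most 0.67 both in MEK1ca + HOXB8 and in MEK1ca, for a ratio of MEK1ca + HOXB8 to MEK1ca below 1.5, and for all 4 libraries with MEK1ca to lie below both pCIG libraries. A pseudocount of 0.5 CPM was added to both terms of each ratio. Of 17108 annotated genes, 9277 reached 5 CPM in pCIG and 172 of these (1.85%) met the whole rule. The rule used the values of all 6 libraries, so the falls and calls given below describe the set and are not evidence for it.

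Extracellular signals such as FGF activate the kinase MEK1, which phosphorylates ERK1/2, and ERK then acts on transcription factors and other proteins. In the caudal part of the embryo, FGF and ERK activity keeps neural progenitors immature, and its decline accompanies neuronal differentiation. HOXB8 is a homeodomain transcription factor of the trunk, one of the HOX proteins that give the body axis its regional identity.

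The neural tube of chicken embryos was electroporated in ovo at stage HH11, and GFP-positive cells were sorted 18 h later from dissected tissue of pooled embryos. In the MEK1ca + HOXB8 condition the DNA mix held 1 µg/µL of the vector for MEK1ca, a constitutively active MEK1, and 1 µg/µL of the vector for HOXB8. In the MEK1ca condition it held 1 µg/µL of the MEK1ca vector with 1 µg/µL of the empty vector pCIG, and in the pCIG condition 2 µg/µL of pCIG. Each of the 3 conditions had 2 libraries, and HOXB8 alone was not analysed here. All 3 vectors carry GFP, so sorting does not show that a cell received both vectors of a mix, and transfection leaves each embryo a mosaic. Each value is a mean over a sorted pool, in which fewer cells of a type and less RNA per cell cannot be told apart.

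The libraries held 63637195 to 90460770 counts, with 14054 to 14693 genes detected. The labels mark the pCIG and MEK1ca libraries as re-analyses of earlier deposits and the MEK1ca + HOXB8 libraries not, so that library source and addition of HOXB8 cannot be told apart. Low counts between 1 and 10 were even in 99.4% of cases in MEK1ca replicate 2 and in 51.8% to 57.0% of cases elsewhere, and of the set's own counts 83.1% were even in that library, against 46.5% to 55.8%. The table gave Ensembl identifiers alone, and 0 of them matched a symbol in the RefSeq gene table used. The vectors' genes, markers of the neural tube and of neighbouring tissues, and lists of pathway genes were therefore not tested, and genes are given by their position on galGal4.

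Of the 9277 genes, 474 had a ratio of at most 0.67 in MEK1ca versus pCIG. The 172 genes of the set made up 36.3% of these 474. A further 181 were at least 1.5 times higher in MEK1ca + HOXB8 than in MEK1ca. Another 117 had a ratio to pCIG above 0.67 in MEK1ca + HOXB8 without reaching a rise of 1.5 times, and 4 were low in both conditions but overlapped pCIG in single libraries. From the side of MEK1ca + HOXB8, 418 genes had a ratio to pCIG of at most 0.67, of which the set made up 41.1%, and 239 had a ratio above 0.67 in MEK1ca. The plot of both ratios shows the set as the lower left corner of one continuous cloud of genes.

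**Figure D1:**
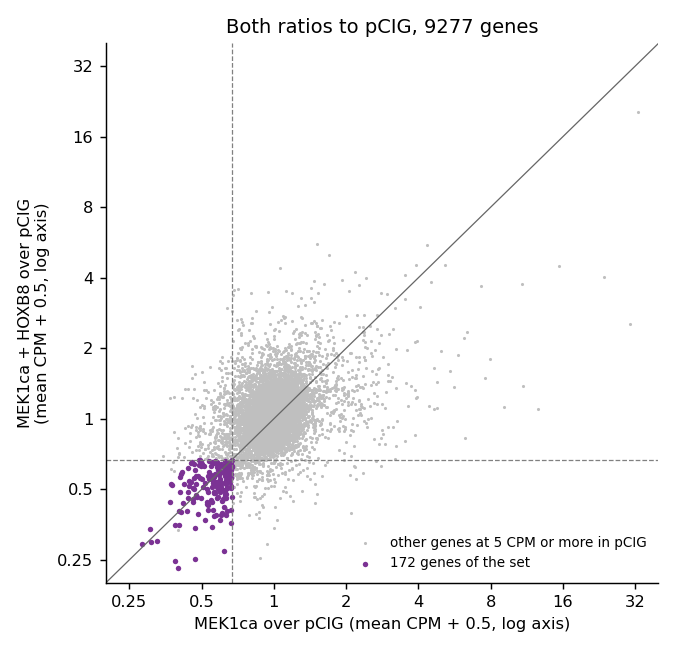
Ratio of the mean CPM in MEK1ca + HOXB8 to that in pCIG (vertical, log axis) against the ratio in MEK1ca to pCIG (horizontal, log axis), each with 0.5 CPM added, for 9277 genes. Purple points are the 172 genes of the set, dashed lines mark 0.67 and the diagonal marks equal ratios; no gap parts the set from the other genes.

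Limits drawn through such a cloud part genes with nearly equal values. Just inside, the gene at chr1:82675889-82696983 had a ratio of 0.622 in MEK1ca + HOXB8 and of 0.67 in MEK1ca, and the gene at chr20:10633103-10644913 had 0.669 in MEK1ca + HOXB8 and 0.488 in MEK1ca. Just outside, the gene at chr4:81642832-81659465 had 0.621 in MEK1ca + HOXB8 and 0.672 in MEK1ca, and the gene at chr5:54592267-54688712 had 0.671 in MEK1ca + HOXB8 and 0.515 in MEK1ca. In each of these genes the replicates of at least 1 condition differed by a larger factor than the distance to the limit.

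Together the 172 genes took 0.674% and 0.791% of all counts in MEK1ca + HOXB8 and 0.745% and 0.919% in MEK1ca, against 1.495% and 1.502% in pCIG. The summed level was lower in each of the 4 libraries with MEK1ca than in pCIG, and the ranges of MEK1ca + HOXB8 and MEK1ca overlapped. The median gene of the set had 17.8 CPM in MEK1ca + HOXB8 (range 1.02 to 375) and 17.2 CPM in MEK1ca (1.89 to 507), against 35.7 CPM in pCIG (5.01 to 848). No member was without counts in any library, and the lowest count of a member in a library was 63, in MEK1ca replicate 1.

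The genes were moderately rather than strongly lower. The median ratio to pCIG was 0.529 in MEK1ca + HOXB8 (range 0.231 to 0.669) and 0.571 in MEK1ca (0.281 to 0.67), and over the 9277 genes it was 1.02 and 0.980 in these conditions. A ratio of at most 0.5 was found for 63 genes in MEK1ca + HOXB8, for 50 in MEK1ca and for 24 in both. Only 4 genes were at or under 0.35 in both conditions, while 83 were above 0.5 in both.

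Single libraries differed in how far the genes lay below control. The median ratio to a gene's pCIG mean was 0.498 and 0.547 in MEK1ca + HOXB8, 0.505 and 0.607 in MEK1ca, and 0.994 and 1.01 in the pCIG libraries themselves. In MEK1ca, replicate 2 was above replicate 1 for 147 of the 172 genes (85.5%), against 55.1% of the 9277 genes, with a median ratio of replicate 2 to replicate 1 of 1.24, against 1.01. In MEK1ca + HOXB8, replicate 2 was above replicate 1 for 117 genes (68.0%), against 52.4%, and in pCIG for 89 (51.7%), against 46.6%. The rule used the values of these same libraries, so nothing is read from the contrasts with the 9277 genes. The genes of the set lay nearer to control in MEK1ca replicate 2, the library with even counts. There 51 of them exceeded 0.67 of their pCIG mean, against 6 in MEK1ca replicate 1. The part of the even counts in this difference was not tested. Halving that library's counts leaves its CPM almost as they are, and with halved counts 91 genes were called lower in MEK1ca versus pCIG, as many as without halving.

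**Figure D2:**
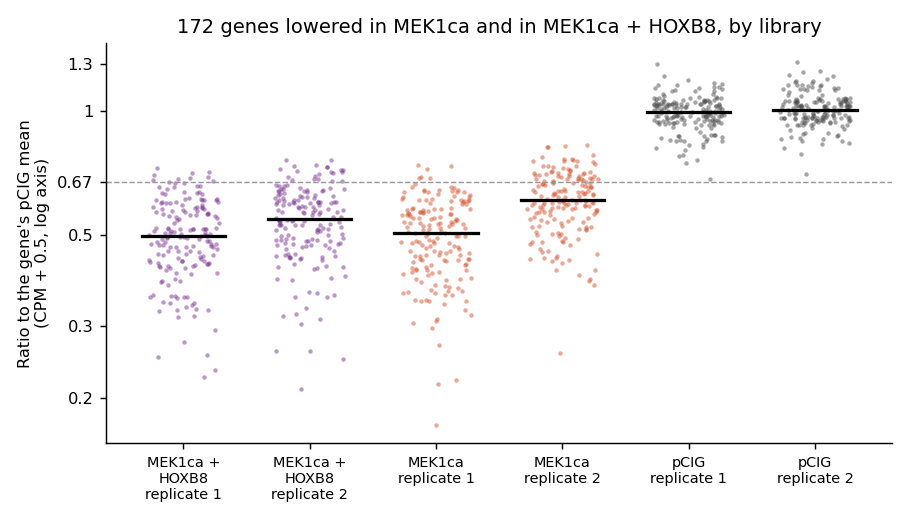
Ratio of each gene's CPM in 1 library to its mean in pCIG (log axis, 0.5 CPM added) for the 172 genes in the 6 libraries. Points are genes, black bars are medians (0.498, 0.547, 0.505, 0.607, 0.994 and 1.01 in the order of the axis) and the dashed line marks 0.67; MEK1ca replicate 2 lies highest among the 4 libraries with MEK1ca.

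All 172 genes were among the 13582 genes with enough counts for edgeR's quasi-likelihood test, in 1 fit of the 6 libraries, with p-values adjusted over all genes after Benjamini and Hochberg and called at 0.01 or less. In MEK1ca + HOXB8 versus pCIG 129 of the 172 genes were called lower, with 5.90% of all genes tested called lower. In MEK1ca versus pCIG 91 were called lower, with 1.90% of all genes called lower, and 84 genes were called lower in both, with 0.972% of all genes. No member was called higher against pCIG by edgeR or DESeq2, or by edgeR at an unadjusted p under 0.05, with 8.91% of all genes called higher in MEK1ca + HOXB8 and 4.26% in MEK1ca. The rule chose genes for these same differences, so the shares are printed side by side and nothing is read from them. At an unadjusted p under 0.05, 172 genes were lower in MEK1ca + HOXB8 versus pCIG and 170 in MEK1ca versus pCIG. No share over all genes is given for unadjusted p-values. The rule had asked for lower values in these same libraries, so nothing is read from these 2 counts. With the 2 pools of a condition as replicates, these p-values set differences against the spread between pools, and not between embryos.

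Replicate spread and read depth went with which members were called. The 36 genes called in neither comparison with pCIG had a median of 1170.2 counts per pCIG library and the larger pCIG library was a median of 1.33 times the smaller one. The 84 genes called lower in both had a median of 4775 counts, and the larger pCIG library was a median of 1.09 times the smaller. The larger MEK1ca library was a median of 1.56 times the smaller for genes called in neither and 1.21 times for genes called in both. In TPM, which also scales a level to the exonic length of the gene, the pCIG level had a median of 10.6 TPM in the genes called in neither and 45.8 TPM in those called in both.

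The median log2 fold change of the members was -1.04 in MEK1ca + HOXB8 versus pCIG (range -2.65 to -0.68) and -0.82 in MEK1ca versus pCIG (-2.05 to -0.56), where all genes tested had medians of 0.02 and -0.01. Both comparisons share the pCIG libraries, so their values for a gene are not independent of each other. Leaving out a library leaves 1 in its condition, and the number of calls fell in some such fits and rose in others. The larger falls follow, and their cause was not tested. Without pCIG replicate 1, pCIG replicate 2 or MEK1ca replicate 1, the 91 genes called lower in MEK1ca versus pCIG became 39, 35 and 46, and the 84 genes called in both became 35, 32 and 46. The 129 genes called lower in MEK1ca + HOXB8 versus pCIG became fewer when any 1 of the 4 compared libraries was left out.

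The mean of both log2 ratios was lowest for ENSGALG00000012155, a gene of 25 exon segments and 3937 exonic bases at chr4:57631764-57683454 on the minus strand. It had 1.87 and 2.20 CPM in MEK1ca + HOXB8 and 0.990 and 2.88 CPM in MEK1ca, against 5.40 and 10.9 CPM in pCIG. Its replicates differed by more than 2 times in MEK1ca and in pCIG. The log2 fold change was -2.09 (SE 0.50) in MEK1ca + HOXB8 versus pCIG and -2.05 (SE 0.51) in MEK1ca versus pCIG, and it was called in neither. At chr14:6073676-6095679, ENSGALG00000005413, with 2 exon segments and 1780 exonic bases on the minus strand, came next. This gene had 4.36 and 4.51 CPM in MEK1ca + HOXB8 and 3.08 and 6.08 CPM in MEK1ca, against 16.3 and 15.8 CPM in pCIG. The pCIG libraries lay far above the 4 others, with a log2 fold change of -1.94 (SE 0.27) in MEK1ca + HOXB8 versus pCIG and -1.78 (SE 0.27) in MEK1ca versus pCIG, and it was called lower in both. Genes given by position from here on were chosen after their values were seen.

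Per length, the set reached from 1.61 TPM to 929 TPM in pCIG, with a median of 26.9 TPM, against 39.5 TPM for the 9277 genes. In MEK1ca + HOXB8 and MEK1ca the median was 13.3 and 15.1 TPM in the set and 39.6 and 40.7 TPM in the 9277 genes. The member with the highest pCIG level, a gene of 2 exon segments and 357 exonic bases at chr25:468703-470859, had 405 and 527 TPM in MEK1ca + HOXB8 and 502 and 618 TPM in MEK1ca, against 911 and 946 TPM in pCIG. At chr20:10351641-10352379, a gene of 593 exonic bases had 232 and 302 TPM in MEK1ca + HOXB8 and 288 and 286 TPM in MEK1ca, against 645 and 724 TPM in pCIG. The gene at chr12:18261478-18278207, with 2 exon segments and 2916 exonic bases, had 220 and 273 TPM in MEK1ca + HOXB8 and 236 and 301 TPM in MEK1ca, against 563 and 578 TPM in pCIG. The ratios of these abundant members to pCIG were 0.515, 0.40 and 0.443 in MEK1ca + HOXB8. With the 9277 genes cut into 4 equal bins by pCIG TPM, low to high, the set held 2.85%, 1.81%, 1.29% and 1.47% of the genes.

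The rule let HOXB8 raise a gene by less than 1.5 times and set no limit to a further fall. The ratio of MEK1ca + HOXB8 to MEK1ca had a median of 0.952 in the set (range 0.441 to 1.44, interquartile range 0.830 to 1.07) and of 1.04 in the 9277 genes. By plain CPM it was below 1 in 110 of the 172 genes (63.95%), against 43.9% of the 9277 genes. After TMM scaling the log2 fold change was below 0 in 129 genes (75%), against 57.2% of the 9277 genes. Its median was -0.18 in the set, against -0.05 in the 9277 genes and 0.02 in all genes tested. With scaling by library size alone the median of all genes tested moved to 0.12 and that of the set to -0.07. The rule limited the values of both conditions in these same libraries. Differences between the set and the 9277 genes in this ratio are therefore shaped by the rule, and nothing is read from them.

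Among the set, 17 genes (9.88%) were called lower in MEK1ca + HOXB8 versus MEK1ca. The share called lower was 7.99% in all genes tested and 10.4% in the genes at 5 CPM or more in pCIG, from which the set was drawn. In the set 0 were called higher, with 8.74% of all genes called higher. A rise past the rule's limit had been left out beforehand, so the 0 carries no information on its own. At an unadjusted p under 0.05 edgeR had 50 of the genes lower and 5 higher, and DESeq2 called 28 lower and 1 higher at 0.01. No share over all genes is given for these settings. The rule's limit on rises also shapes the balance of these falls and rises, so nothing is read from it. By plain CPM, both MEK1ca + HOXB8 libraries lay below both MEK1ca libraries in 46 genes, with 23.4% of all genes doing so. They lay above both in 22, with 45.2% of all genes. The other 104 genes overlapped between the conditions. Plain CPM leaves out TMM scaling, and without TMM the middle of this comparison lay at 0.12 in log2, against 0.02 with it. This offset enters the 23.4% and 45.2%, so no lack of rises in the set is read from them. The 17 calls became 3 without MEK1ca + HOXB8 replicate 1, 6 without MEK1ca replicate 2, and 10 without either pCIG library.

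**Figure D3:**
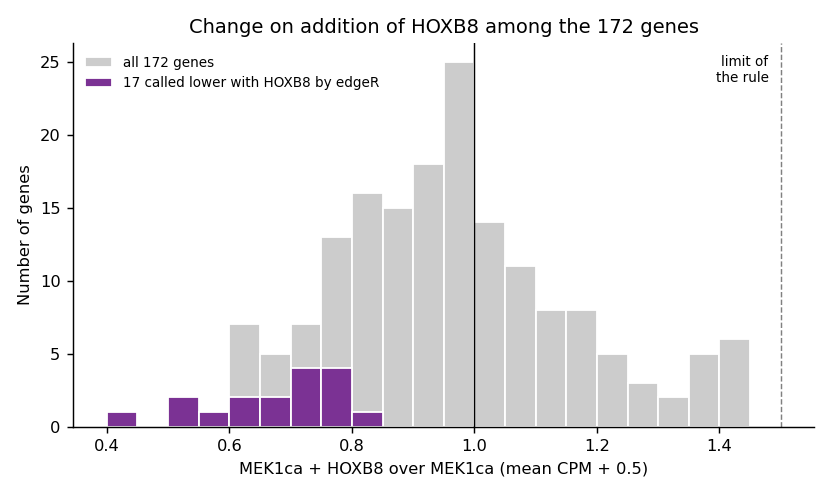
Number of genes by their ratio of mean CPM in MEK1ca + HOXB8 to that in MEK1ca (0.5 CPM added) for the 172 genes, with the 17 called lower by edgeR in purple. The solid line marks equal levels and the dashed line the limit of 1.5; 110 genes lie left of the solid line, and the called genes span 0.441 to 0.819.

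The 17 genes had a median ratio of 0.713 between MEK1ca + HOXB8 and MEK1ca, and median ratios to pCIG of 0.422 in MEK1ca + HOXB8 and 0.608 in MEK1ca. Their median pCIG level was 83.5 TPM, above the 26.9 TPM of the whole set. As calls went with read depth in the comparisons with pCIG, this level is not read as a trait of the 17 genes. The lowest ratio was that of a gene of 10 exon segments at chrZ:11029529-11093852, with 40.6 and 58.1 CPM in MEK1ca + HOXB8, 91.8 and 134 CPM in MEK1ca and 196 and 169 CPM in pCIG. Its 3 conditions did not overlap, and it was called lower with HOXB8 (log2 fold change -1.30, SE 0.22) but not in MEK1ca versus pCIG. A gene of 30 exon segments at chr7:14582883-14641810 had 12.6 and 12.2 CPM in MEK1ca + HOXB8, 21.7 and 25.0 CPM in MEK1ca and 51.5 and 49.7 CPM in pCIG. Here the replicates were close and each condition was about as far from the next, with a log2 fold change of -1.02 (SE 0.12) for MEK1ca + HOXB8 versus MEK1ca. The lowest ratio to pCIG in MEK1ca + HOXB8, 0.231, was that of a rare transcript at chr1:42006975-42038172, with 1.16 and 0.888 CPM in MEK1ca + HOXB8, 1.89 and 2.39 CPM in MEK1ca and 6.34 and 5.86 CPM in pCIG. Another member on chromosome 1, at 28525499 to 28668231 with 34 exon segments, had 55.1 and 60.6 CPM in MEK1ca + HOXB8, 90.5 and 95.2 CPM in MEK1ca and 181 and 158 CPM in pCIG. All of these were lowest in MEK1ca + HOXB8, higher in MEK1ca and highest in pCIG, without overlap between conditions.

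At the other end, no member was called higher with HOXB8 by edgeR, and the values of the members with high ratios are given as they stand. The gene at chr5:2045883-2049582 had the highest ratio, 1.44, with 64.5 and 84.6 CPM in MEK1ca + HOXB8, 39.8 and 63.4 CPM in MEK1ca and 126 and 125 CPM in pCIG. By plain CPM its MEK1ca + HOXB8 libraries lay above both MEK1ca libraries by a small margin, and its MEK1ca replicates differed more than this margin. At chr4:30294675-30371237 a gene with a ratio of 1.41 had 20.3 and 23.2 CPM in MEK1ca + HOXB8, 15.1 and 15.4 CPM in MEK1ca and 41.5 and 41.7 CPM in pCIG. For this gene the replicates of MEK1ca and pCIG were nearly equal and the 3 conditions lay clearly apart, though it was not called higher with HOXB8 (log2 fold change 0.41, SE 0.12).

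Split at ratios of MEK1ca + HOXB8 to MEK1ca of 0.8 and 1.25, the set held 36, 120 and 16 genes, low to high. The 36 genes had median ratios to pCIG of 0.416 in MEK1ca + HOXB8 and 0.617 in MEK1ca. In the middle 120 genes these were 0.542 and 0.571. The 16 genes at 1.25 or more had 0.632 in MEK1ca + HOXB8 and 0.462 in MEK1ca. A lower MEK1ca value or a higher MEK1ca + HOXB8 value raises this ratio by its arithmetic. The order of the medians in both conditions therefore follows in part from the split itself. Genomic span, which the rule did not use, had a median of 33550 bases in the 36 genes, 21743 bases in the 120 and 6424.5 bases in the 16. In the same order, the median exonic length was 3738, 2581 and 2259 bases and the median pCIG level 31.2, 27.0 and 15.7 TPM. The classes thus differed in level and exonic length as well, and no difference between them was tested.

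The annotated structure of the genes is given as a description. The rule did not use it directly, but CPM is not scaled to exonic length, so that length bears on which genes reach 5 CPM. The span from first to last annotated base had a median of 21874.5 bases in the set, against 15856 bases in the 9277 genes. A span of at least 100000 bases was found for 29 members (16.9%), against 7.64% of the 9277 genes. In the 239 genes lowered only in MEK1ca + HOXB8 this share was 18.8% and the median span 31390 bases, and in the 181 genes higher with HOXB8 it was 13.3% with a median of 19469 bases. Long genes were thus not particular to the set, and no difference in span was tested. With the 9277 genes cut into 4 equal bins by span, short to long, the set held 41, 27, 37 and 67 genes, or 1.77%, 1.16%, 1.60% and 2.89% of each bin. Over all genes of the longest bin, the median log2 fold change was -0.09 in MEK1ca + HOXB8 versus pCIG and 0.01 in MEK1ca versus pCIG.

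**Figure D4:**
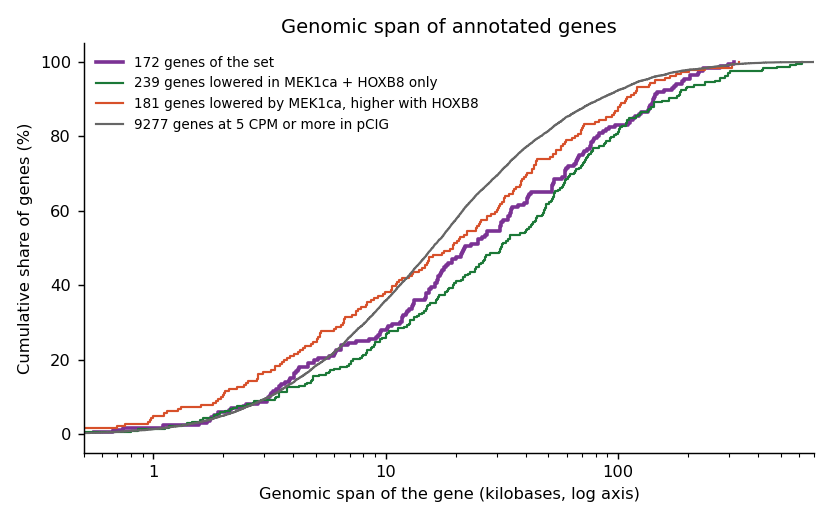
Cumulative share of genes (percent) by the genomic span from first to last annotated base (kilobases, log axis). The 172 genes of the set are in purple, with a median of 21874.5 bases; the 239 genes lowered only in MEK1ca + HOXB8 (31390 bases) and the 181 genes higher with HOXB8 (19469 bases) are in green and orange, and all 9277 genes (15856 bases) in grey.

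The exonic length of the members was close to that of other genes, with a median of 2651.5 bases against 2473 bases. They had a median of 8.5 exon segments, against 10, and exons made up a median of 12.1% of the span, against 16.5%. The largest member by exonic length, a gene of 144 exon segments and 27641 exonic bases at chr3:48447032-48720659, had 30.1 and 37.4 CPM in MEK1ca + HOXB8 and 34.8 and 31.6 CPM in MEK1ca, against 63.3 and 44.7 CPM in pCIG. The conditions with MEK1ca overlapped each other in this gene, and the pCIG replicates differed by more than the others. At the other extreme, 6 members (3.49%) had a single exon segment, against 1.96% of the 9277 genes. Of these, a gene of 1095 bases at chr7:4973410-4974504 had 45.8 and 50.1 CPM in MEK1ca + HOXB8 and 51.6 and 62.5 CPM in MEK1ca, against 110.0 and 107 CPM in pCIG.

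Exons of 12 members shared bases with a gene on the opposite strand, and 33 members overlapped the span of another gene. The strand setting of the counting is not given in the sources used here, so reads of these 12 members cannot be told from those of their partners. Of these 12, 1 was called lower in both comparisons with pCIG, against 84 of the 172 members (48.8%) and 0.972% of all genes tested, and 160 members had no shared exon base.

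Members lay on each of the 28 chromosomes that held at least 50 of the 9277 genes. The highest share was on chromosome 26, with 9 of 131 genes (6.87%), and the lowest on chromosome 13, with 1 of 204 (0.490%). Chromosome 1 held 25 of 1259 genes (1.99%) and chromosome Z held 11 of 464 (2.37%). The shares on the small chromosomes rest on few genes and were not tested.

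Some members were next to each other. Among the genes at 5 CPM or more in pCIG, in their order along the chromosomes, 24 members (13.95%) stood in 11 uninterrupted runs, 2 of which had 3 genes. In the runs starting at chr20:10633103 and chr3:12843173 the genes lay on opposite strands with overlapping spans, and all shared exon bases with another gene. In the run starting at chr3:56196431 the spans of genes on the same strand overlapped. No share in runs is given for other sets of genes, so nothing is read from the 13.95%. The run on chromosome 6 began with a plus-strand gene at chr6:17505026-17522233, which had 7.01 and 8.14 CPM in MEK1ca + HOXB8 and 4.78 and 8.70 CPM in MEK1ca, against 26.2 and 20.5 CPM in pCIG. The next, at chr6:17554592-17557812 on the minus strand, had 17.7 and 12.3 CPM in MEK1ca + HOXB8 and 9.85 and 14.4 CPM in MEK1ca, against 32.5 and 23.6 CPM in pCIG. The last, at chr6:17563818-17576143, also on the minus strand, had 66.5 and 74.9 CPM in MEK1ca + HOXB8 and 62.5 and 72.9 CPM in MEK1ca, against 143 and 166 CPM in pCIG. All 3 genes had a few exon segments each, and MEK1ca + HOXB8 overlapped MEK1ca in every one of them.

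The run on chromosome 26 held 3 genes on the plus strand. At chr26:5157231-5161261 the values were 72.6 and 73.0 CPM in MEK1ca + HOXB8 and 57.4 and 70.7 CPM in MEK1ca, against 114 and 108 CPM in pCIG. At chr26:5204578-5209509 they were 16.6 and 20.8 CPM in MEK1ca + HOXB8 and 12.4 and 14.4 CPM in MEK1ca, against 30.5 and 28.1 CPM in pCIG. At chr26:5211510-5214635 they were 36.7 and 47.1 CPM in MEK1ca + HOXB8 and 36.0 and 47.6 CPM in MEK1ca, against 88.1 and 90.2 CPM in pCIG. By plain CPM the first and second of these were higher in both MEK1ca + HOXB8 libraries than in both MEK1ca libraries, and the last overlapped. Their ratios by plain CPM were 1.14 and 1.38 for the first and second. After TMM scaling the log2 fold changes of the first and second were 0.08 and 0.37. Neither was called higher by edgeR.

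**Figure D5:**
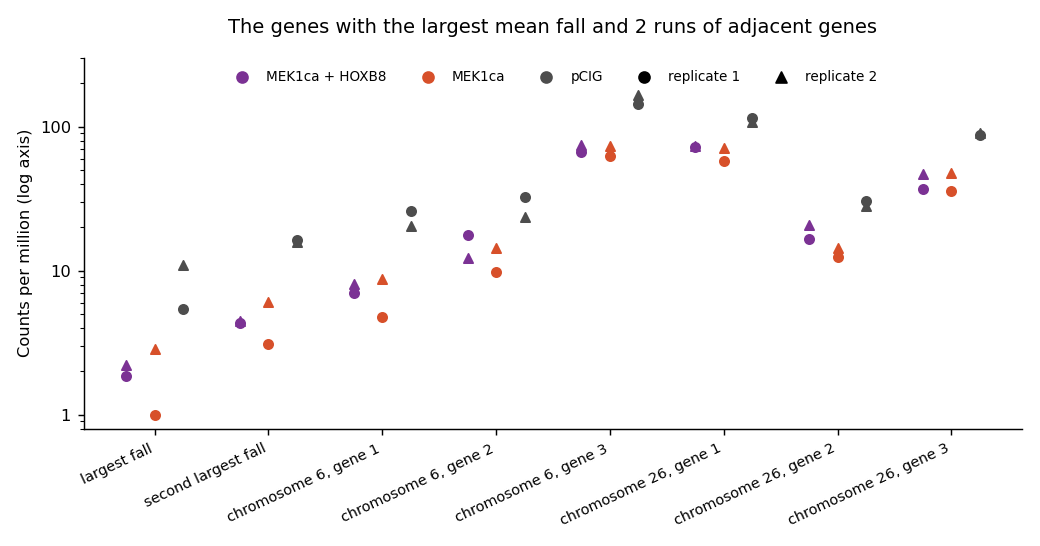
CPM (log axis) in each library for the genes with the lowest and next lowest mean log2 ratio to pCIG and for the runs of 3 adjacent members on chromosomes 6 and 26. Circles are replicate 1 and triangles replicate 2; for each gene both pCIG points lie above the 4 others, from 5.40 and 10.9 CPM in the leftmost gene to 143 and 166 CPM in the last gene of chromosome 6.

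An adjacent gene that met the rule is itself a member and is not counted among the neighbours here. How far lower levels extend along a chromosome can therefore not be read from the neighbours. The 313 nearest neighbours at 5 CPM or more that were not members had log2 fold changes with a median of -0.13 in MEK1ca + HOXB8 versus pCIG and -0.07 in MEK1ca versus pCIG, against -0.06 and -0.01 in the 9277 genes. In MEK1ca versus pCIG 7 neighbours (2.24%) were called lower, against 2.72% of the 9277 genes. In MEK1ca + HOXB8 versus pCIG 41 (13.1%) were called lower, against 8.50%, and in MEK1ca + HOXB8 versus MEK1ca 47 (15.0%), against 10.4%. Neighbours were chosen by position among genes at 5 CPM or more in pCIG that did not meet the rule. The difference in share was not tested. Members are left out of the neighbours but are part of the 9277 genes. Of the members, 52.9% were called lower in MEK1ca versus pCIG and 75% in MEK1ca + HOXB8 versus pCIG. Their calls raise the shares of the 9277 genes in these comparisons. The 2.24% can therefore not be read as a lower share than in other genes that are not members.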

How the data were processed

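RNA-Seq of 6 libraries was analysed. Per the labels, paired-end reads were mapped with Subread (galGal4) and featureCounts was run on the genes of Ensembl 85. The authors deposited the raw counts of each gene. Versions are not given in the sources used here. Reads came from linearly amplified cDNA without molecular identifiers. The authors' deposited tables of 2 comparisons hold their own fold changes and p-values and were not used. CPM, TPM and the rule were computed in Python 3.11.15 with pandas 2.3.3 and numpy 2.4.6, and figures with matplotlib 3.10.9. Genes passing filterByExpr were tested in R 4.3.3 with edgeR 4.0.16 (TMM factors 0.964 to 1.05, robust quasi-likelihood fit, a mean per condition). SEs were taken as the absolute log2 fold change divided by √F. The test was tested on simulated data.

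The members and lists were chosen with earlier results of these data known. The genes to be named were members of fixed lists, the most changed, the most abundant and those beside the limits, all by symbol. Without symbols, at most 2 identifiers with the largest fall were named. Alternatives were other scalings, DESeq2 1.42.0, other filters, thresholds, pseudocounts and limits, the 4 compared libraries alone, the replicate number as a block and leaving out each library. Halving the counts of MEK1ca replicate 2 and leaving out members with shared exon bases were chosen after seeing the data.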

Additional observations from a re-analysis of the deposited data

How the results depend on the processing

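The set held 127 to 195 genes when a library was left out, of which 121 to 160 were members, and 24 with a limit of 0.5 in place of 0.67. At a threshold of 0.05, 137 members were called lower in MEK1ca versus pCIG, 134 in both comparisons with pCIG and 34 in MEK1ca + HOXB8 versus MEK1ca. DESeq2 gave 141, 138 and 28 of these calls. In MEK1ca + HOXB8 versus MEK1ca, 8 were called with scaling by library size alone and 9 with the 4 compared libraries alone. Leaving out 1 library, where the lone one left is assumed to vary like the other groups, gave 35 to 110 calls in MEK1ca versus pCIG, 32 to 105 in both with pCIG, 74 to 151 in MEK1ca + HOXB8 versus pCIG and 3 to 20 in MEK1ca + HOXB8 versus MEK1ca. The median log2 fold change in MEK1ca + HOXB8 versus pCIG was -0.96 with library size alone, and -1.13 to -0.99 with a library left out. Same-numbered libraries had correlations of their deviations of 0.13, -0.11 and -0.03. Whether they share more than a number is not given in the sources used here. With the replicate number as a block, 116 members were called lower in MEK1ca versus pCIG, 109 in both with pCIG, 148 in MEK1ca + HOXB8 versus pCIG and 20 in MEK1ca + HOXB8 versus MEK1ca. No share over all genes is given for these alternative settings, so their counts of members cannot be set against all genes. The causes of the differences between settings were not tested. The median log2 fold changes of the members in the comparisons with pCIG stayed below 0 under each alternative. The rule had chosen the members for lying below pCIG in these same libraries, so nothing is read from this. The log2 fold change of ENSGALG00000012155 in MEK1ca + HOXB8 versus MEK1ca, not called, was -0.04 and became 0.91 without MEK1ca replicate 2. Differences between MEK1ca + HOXB8 and MEK1ca within the replicate spread are not resolved with 2 libraries per condition.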
